A study of Mus musculus with 2 samples.

Results

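Matrix metalloproteinases (MMPs), ADAMTS proteinases, ADAMTS-like proteins and their tissue inhibitors (TIMPs) were described in intestinal subepithelial myofibroblasts (ISEMFs), the cells that lie beneath the crypt epithelium. The members were the protein-coding genes of the deposited table whose symbol is Mmp, Adamts, Adamtsl or Timp followed by a number. They were 51 of the 22379 protein-coding genes, with 23 MMP, 19 ADAMTS, 5 ADAMTS-like and 4 TIMP genes. Of these, 44 had at least 1 read and 26 reached an RPKM (the read count divided by exon length and by library size) of 1 or more in either library. These 26 are called expressed below.

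The study sequenced 1 library of supportive ISEMFs, grown from the small intestine of neonatal C57BL/6 mice, and 1 library of non-supportive ISEMFs, grown from that of adult C57BL/6 mice. Both came from wild-type mice and were isolated the same way, grown in medium with serum, insulin, transferrin and EGF and expanded by passaging, with no treatment in the labels, and the names of the populations refer to how well crypts grew into enteroids beside them when the medium held no Rspo1. The number of mice behind each culture is not given in the sources used here. The names in the deposit carry the mark P16 for the supportive and P3 for the non-supportive cells, which may be passage numbers but is not explained there. With 1 library per population no difference has a replicate check, and population, age of the mice, passage and isolation cannot be told apart. Reads on genes numbered 50674472 for supportive and 49615497 for non-supportive ISEMFs, of which the 51 members made 0.590% and 0.261%. The myofibroblast genes Acta2, Vim, Des, Tagln, Myl9 and Cnn1 all had reads in both libraries, which alone does not check the label. All had a lower RPKM in supportive ISEMFs, and Des and Cnn1 were at least 2-fold lower. Acta2 had an RPKM of 908 in supportive and 1410 in non-supportive ISEMFs, Vim 325 and 407, and Des 0.575 and 3.40. Tagln had 206 and 360, Myl9 506 and 608, and Cnn1 78.6 and 187. Ratios are of supportive over non-supportive ISEMFs, their 95% exact intervals come from the reads and cover counting error only, and fewer cells of a type and less RNA per cell cannot be told apart in them.

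MMPs are zinc-dependent endopeptidases that are made as inactive proenzymes and together cleave collagens, gelatin, elastin, proteoglycans and many signaling proteins. ADAMTS proteinases are secreted relatives that process procollagens and cleave the large aggregating proteoglycans (hyalectans) such as versican and aggrecan, while ADAMTS-like proteins share their ancillary domains, lack the catalytic domain and bind to fibrillin microfibrils. TIMPs bind the active site of these enzymes. In the gut wall, myofibroblasts and fibroblasts are known sources of several of these genes, macrophages of others, and Paneth cells of Mmp7 in mice.

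Many mouse MMP genes lie in 1 cluster on chromosome 9, and promoters of its genes are shown because 4 of the 6 members that were at least 2-fold lower in supportive ISEMFs lie there. Each sequence runs from 100 bases before to 20 bases after a RefSeq start, and was found exactly once in mm9, the build of the deposited files. Capitals mark a match to TGANTCA, the letters bound by AP-1 (dimers of Fos and Jun proteins), or to TATAAA, the letters of a TATA box, on either strand and at any position. Of the 2 starts of Mmp12, the one with both matches is shown. The promoter of Adamtsl3, the member with the highest ratio, is shown for contrast.
Mmp13 promoter, chr9:7272414-7272533, plus strand: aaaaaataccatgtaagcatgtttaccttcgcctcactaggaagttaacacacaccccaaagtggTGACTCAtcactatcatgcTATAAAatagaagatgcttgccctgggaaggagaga
Mmp12 promoter, chr9:7347274-7347393, plus strand: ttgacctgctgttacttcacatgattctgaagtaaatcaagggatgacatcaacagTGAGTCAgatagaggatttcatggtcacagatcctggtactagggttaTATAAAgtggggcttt
Mmp3 promoter, chr9:7445722-7445841, plus strand: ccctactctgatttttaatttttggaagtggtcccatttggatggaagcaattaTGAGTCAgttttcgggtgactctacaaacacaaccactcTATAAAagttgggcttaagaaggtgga
Mmp10 promoter, chr9:7502242-7502361, plus strand: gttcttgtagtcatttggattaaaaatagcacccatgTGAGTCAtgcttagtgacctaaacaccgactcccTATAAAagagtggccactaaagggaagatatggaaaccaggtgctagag
Mmp8 promoter, chr9:7558329-7558448, plus strand: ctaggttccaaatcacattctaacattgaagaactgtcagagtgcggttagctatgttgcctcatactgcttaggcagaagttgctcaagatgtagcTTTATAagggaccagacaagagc
Adamtsl3 promoter, chr7:89484104-89484223, plus strand: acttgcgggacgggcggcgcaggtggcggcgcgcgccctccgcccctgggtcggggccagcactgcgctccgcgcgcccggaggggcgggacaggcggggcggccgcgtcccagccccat

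The TGANTCA match began 35 bases before the start in Mmp13, 44 in Mmp12, 46 in Mmp3 and 63 in Mmp10. The TATAAA match began 29 bases before the start in Mmp10, 16 in Mmp13, 7 in Mmp3 and 3 in Mmp8. In Mmp12 it lay at -4, after the start. Mmp8 held TATAAA on the other strand and no TGANTCA, and Adamtsl3 held neither. RefSeq promoters (250 bases before to 50 after the start, GRCm38.p6) were at hand for 36 of the 51 members, with 39 starts in all. None was at hand for Mmp9 and Mmp17, the lower members off chromosome 9. The expressed members Mmp2, Mmp16, Mmp19, Adamts4, Adamts5, Adamts6 and Adamts10 also had none, so the counts below do not cover them. TGANTCA was found in 8 of the 12 promoters of the chromosome 9 cluster and in 0 of the 27 promoters of members elsewhere, against 7.81% of all 32851 promoters and 4.92% of those of expressed protein-coding genes. TATAAA was in 9 of the 12 and 3 of the 27, against 13.6% of all promoters and 7.05% of those of expressed protein-coding genes. All 8 cluster promoters with TGANTCA also held TATAAA. The cluster genes are paralogs, so their promoters need not be independent of each other. The 8 promoters with TGANTCA belonged to 8 of the 10 genes of the cluster, among them Mmp1a, Mmp7 and Mmp20, which had no read in either library, and Mmp12 and Mmp7 each have a second start without it. A match is a description of letters and not of binding.

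Of the 26 expressed members, 19 (73.1%) differed at least 2-fold, where 18.2% of the 9110 expressed protein-coding genes did. The log2 ratios used for this count have a pseudocount of 0.1 RPKM, which understates differences at low values. Of the 19 genes, 13 were higher in supportive ISEMFs (50% of the expressed members, against 9.25% of all expressed protein-coding genes) and 6 were lower (23.1% against 8.98%). A gene that reaches an RPKM of 1 in a single library is more likely to differ. Of the 17 members at that level in both libraries, 10 were past 2-fold, 9 higher and 1 lower, beside 11.8% of the protein-coding genes at that level in both. Another 4 members reached it in supportive ISEMFs alone and 5 in non-supportive ISEMFs alone. The median log2 ratio of the expressed members was 0.97, against -0.07 for all expressed protein-coding genes, and the median of its absolute value was 2.50 against 0.41.

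The counts differed by family. Of the 8 expressed ADAMTS genes 4 were at least 2-fold higher and 0 lower, and all 3 expressed ADAMTS-like genes were higher. Of the 12 expressed MMP genes 5 were higher and 6 lower, which was 11 past 2-fold, with log2 ratios from -7.10 to 3.38. Of the 3 expressed TIMP genes 1 was higher and 0 were lower. The 3 ADAMTS-like genes and Mmp23 reached an RPKM of 1 in supportive ISEMFs alone. Mmp8, Mmp9, Mmp10, Mmp12 and Mmp13 reached it in non-supportive ISEMFs alone. The side of these genes was thus largely set by the minimum, and of the lower MMP genes only Mmp17 reached it in both libraries. These are counts over few genes and no test was made of them. At a 4-fold threshold the MMP count was 7, with 2 higher, and the TIMP count 0, where 603 of the 9110 expressed protein-coding genes passed.

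**Figure D1:**
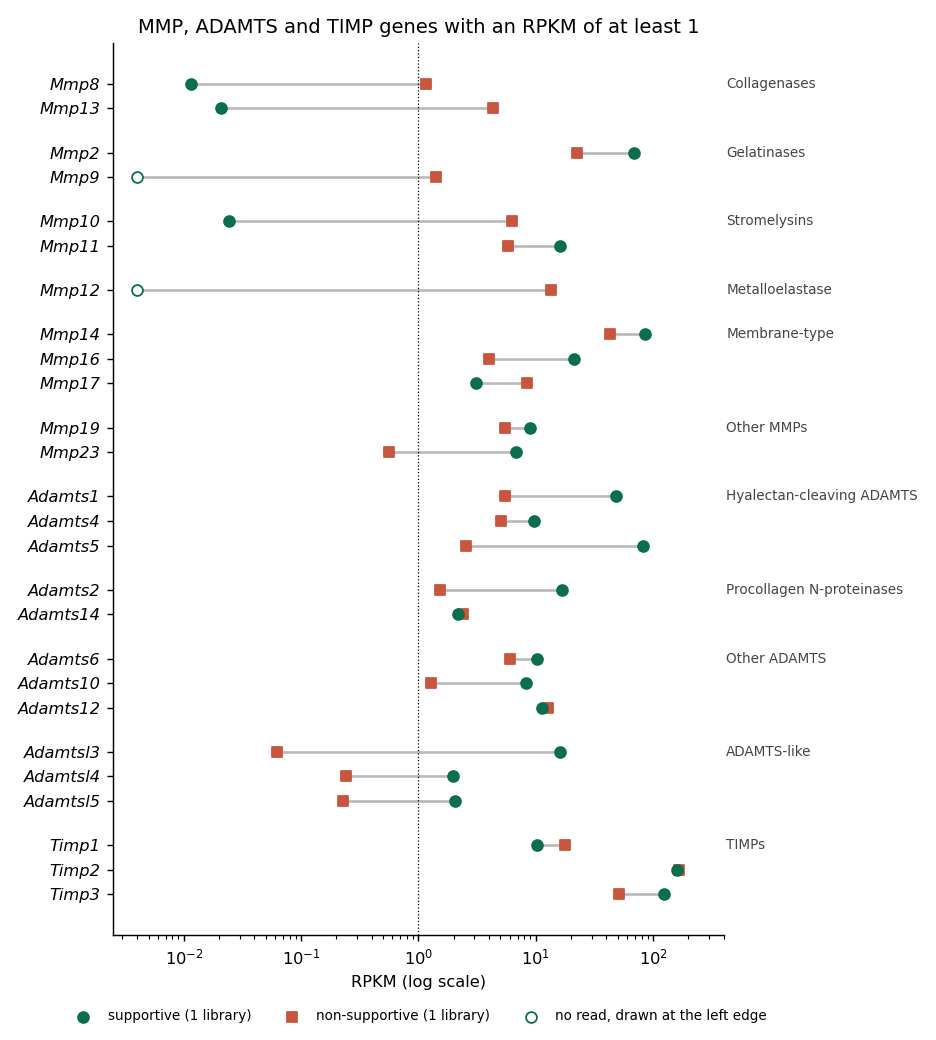
RPKM (log scale) of the 26 expressed members in the supportive library (circles) and the non-supportive library (squares), grouped by role, with open circles at the left edge for genes without a read. Mmp8, Mmp9, Mmp10, Mmp12 and Mmp13 were at or near 0 in supportive ISEMFs, while Adamts5, Mmp14 and Mmp2 stood at 82.6, 86.0 and 68.5.

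Collagenases cleave the triple helix of fibrillar collagens. Mmp13 (collagenase 3, chr9:7272514-7283333 of mm9) had 4 reads and an RPKM of 0.0209 in supportive ISEMFs and 806 reads and an RPKM of 4.34 in non-supportive ISEMFs. It was 207-fold lower in the supportive library (95% exact interval, 80.7 to 763). Mmp8, known as neutrophil collagenase, had 2 reads and an RPKM of 0.0114 against 198 reads and 1.16, which was 102-fold lower with an interval of 27.8 to 847. Both collagenases were thus detected almost only in the non-supportive library. The interstitial collagenase genes Mmp1a and Mmp1b had 0 and 1 reads over both libraries. Of 6 neutrophil markers, S100a9, Elane, Ltf and Camp had no read in either library, while Mpo had 0 reads in supportive and 10 in non-supportive ISEMFs and S100a8 0 and 2. The part of neutrophils in the difference of Mmp8 was not tested.

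Gelatinases degrade denatured collagen and basement membrane collagen. Mmp2 (gelatinase A, chr8:95351227-95377316) had 14873 reads and an RPKM of 68.5 in supportive ISEMFs against 4775 reads and 22.6. It was 3.03-fold higher (interval, 2.93 to 3.13). Mmp9 (gelatinase B, chr2:164766280-164781350) had no read in supportive ISEMFs and 387 reads with an RPKM of 1.41 in non-supportive ISEMFs. Computed at 3 reads it was 133-fold lower, and the limit of the interval was 107-fold. The gelatinases therefore lay on opposite sides.

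Stromelysins cleave proteoglycans, laminin and fibronectin and can activate other proMMPs. Mmp10 (stromelysin 2, chr9:7502352-7510238) had 3 reads and an RPKM of 0.0244 against 742 reads and 6.21, which was 255-fold lower (interval, 86.7 to 1237). Mmp3 (stromelysin 1) stayed under an RPKM of 1, with 1 read against 53. Mmp11 (stromelysin 3, chr10:75385967-75400678), which differs from most secreted MMPs in being activated inside the cell by furin, had 4633 reads and an RPKM of 16.1 in supportive ISEMFs against 1632 reads and 5.83. It was 2.76-fold higher (interval, 2.61 to 2.92), opposite to Mmp10.

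Mmp12, the macrophage metalloelastase (chr9:7344381-7369499), had no read in supportive ISEMFs and 9099 reads with an RPKM of 13.6 in non-supportive ISEMFs. Computed at 3 reads it was 3121-fold lower, and the limit of the 95% exact interval was 2538-fold. The log2 ratio of Mmp12, -7.10, was the lowest of the expressed members. Other macrophage genes were also lower in supportive ISEMFs. Of the 12 markers listed (Lyz2, Tyrobp, Fcer1g, Cd68, Csf1r, Emr1, Itgam, Ptprc, Aif1, C1qa, C1qb and Laptm5), 10 were expressed. All 10 were at least 2-fold lower in supportive ISEMFs, against 8.98% of all expressed protein-coding genes. Only Lyz2 reached an RPKM of 1 in supportive ISEMFs, at 6.31. The others of the 10 counted as expressed through the non-supportive library alone, which largely sets their direction. The summed RPKM over all 12 was 6.87 in supportive and 130 in non-supportive ISEMFs. In supportive ISEMFs 7 of the 12 had no read, among them Ptprc, Itgam, Emr1 and Tyrobp. In non-supportive ISEMFs Tyrobp was at 30.0, Emr1 at 2.42 and Itgam at 1.68. The part of macrophages in the difference of Mmp12, Mmp9 or the other cluster genes was not tested.

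Mmp7 (matrilysin), made by Paneth cells in the mouse intestine, had no read in either library. The 7 epithelial and Paneth cell markers had a summed RPKM of 0.604 in supportive and 3.39 in non-supportive ISEMFs. Krt20 made most of the latter, with 11 reads and an RPKM of 0.0799 against 419 reads and 3.13, and was the only one of the 7 to be expressed. Under an RPKM of 1, Cdh1 had 159 and 18 reads, Muc2 27 and 3, Vil1 7 and 8, Lyz1 2 and 12, Epcam 0 and 5, and Cdx2 none. The part of epithelial cells in the values of the members was not tested. Mmp20 (enamelysin), an enzyme of tooth enamel, had no read either.

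All 10 genes of the chromosome 9 cluster lie within 427 kb, from 7272514 to 7699585, with no other protein-coding gene of the table between them. Together they had 15 reads in supportive ISEMFs and 10910 in the others. Of the 7 with any read each had more in the non-supportive library, from Mmp12 with 9099 to Mmp1b with 1, and Mmp27 with 5 and 11 had an interval that included a ratio of 1. Of the flanking genes, Dcun1d5 on one side was at an RPKM of 28.9 in supportive and 34.0 in non-supportive ISEMFs, and beyond it Dync2h1 was at 1.46 and 0.851. On the other side Tmem123 was at 27.8 and 33.0 and Birc2 at 7.68 and 7.33. Gm10709, between Mmp7 and Tmem123, had 0 and 1 reads, and Ddi1, farther out on the side of Mmp13, had 1 and 5. Mmp12 and Mmp1b share 157 bases of exon on opposite strands, where reads that could not be given to 1 gene were left out of the counts.

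**Figure D2:**
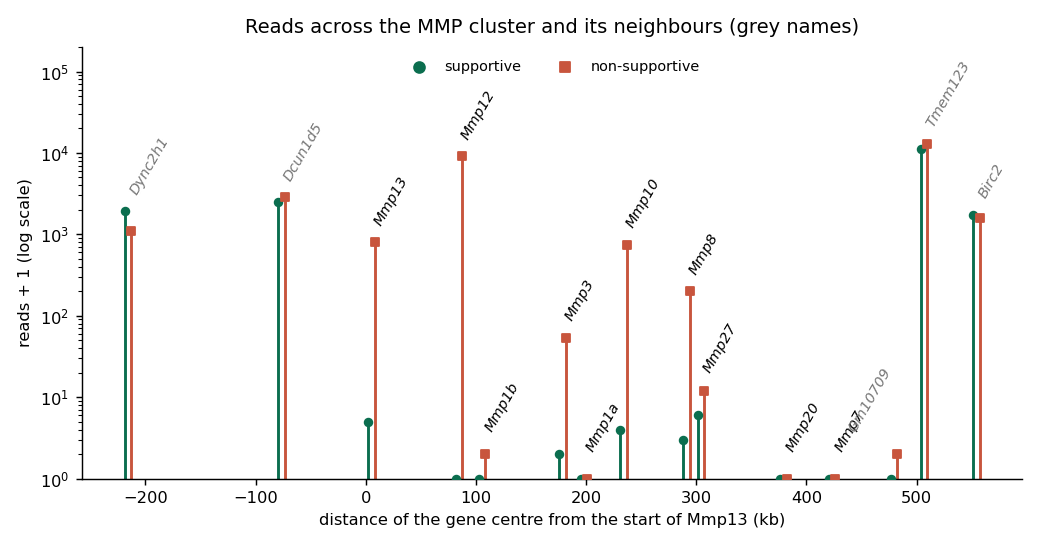
Reads plus 1 (log scale) of the genes of the chromosome 9 MMP cluster (black names) and their protein-coding neighbours (grey names) against the distance of the gene centre from the start of Mmp13 in kb, with circles for the supportive and squares for the non-supportive library. Mmp13, Mmp12, Mmp3, Mmp10 and Mmp8 had 4, 0, 1, 3 and 2 reads in supportive ISEMFs. Of the neighbours, Dcun1d5, Tmem123 and Birc2 had similar reads in both libraries, while Dync2h1 had 1930 in the supportive library against 1095.

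Membrane-type MMPs act at the cell surface. Mmp14 (MT1-MMP, chr14:55050441-55060095), a collagenase that also activates proMMP2 in a complex with Timp2, had the highest RPKM of the MMP genes in both libraries. Its 15970 reads gave an RPKM of 86.0 in supportive ISEMFs against 7680 reads and 42.6. The ratio was 2.02, and its interval of 1.97 to 2.08 reached below 2. Mmp16 (MT3-MMP, chr4:17780040-18046292) had 17518 reads and an RPKM of 21.4 against 3151 reads and 3.95, which was 5.40-fold higher (interval, 5.20 to 5.61). Mmp17 (MT4-MMP), which is held by a glycolipid anchor, went the other way, with 768 reads and 3.08 against 2040 reads and 8.42. It was 2.73-fold lower (interval, 2.51 to 2.97) and the only one of the 6 lower members off chromosome 9 besides Mmp9. Mmp15, Mmp24 and Mmp25 had at most 16 reads in either library.

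Among the other MMPs, Mmp23 (chr4:155024764-155027493), an MMP without the cysteine switch and hemopexin domain of most of the family, had 1433 reads and an RPKM of 6.82 in supportive ISEMFs against 115 reads and 0.563. It was 12.1-fold higher (interval, 10.01 to 14.8), the largest ratio in that direction among the MMP genes. Mmp19 had 2154 reads and an RPKM of 8.84 against 1287 reads and 5.43, a ratio of 1.63 (interval, 1.52 to 1.74), and 23.1% of its exon bases are shared with a neighboring gene. Mmp28 (epilysin) had 103 and 34 reads, and Mmp21 7 and 3.

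The hyalectan-cleaving ADAMTS genes showed the largest summed difference of the enzyme groups that were higher. Adamts5 (aggrecanase 2, chr16:85858415-85901370) had 47752 reads and an RPKM of 82.6 in supportive ISEMFs against 1417 reads and 2.52. It was 32.7-fold higher (interval, 31.1 to 34.6), and stood at rank 179 among protein-coding genes in the supportive library against rank 6126. Its neighbor Adamts1 (chr16:85794072-85803358), a versican- and aggrecan-cleaving enzyme, had 21607 reads and an RPKM of 47.9 against 2394 reads and 5.46, which was 8.77-fold higher (interval, 8.41 to 9.15). These genes are 55.1 kb apart on the same strand. The protein-coding gene beyond Adamts1, Cyyr1, had no read in either library, and beyond Adamts5 N6amt1 was at an RPKM of 1.21 and 0.818.

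Adamts4 (aggrecanase 1) was at an RPKM of 9.69 with 4638 reads against 5.03 with 2339 reads. Its ratio of 1.93 had an interval of 1.83 to 2.03, so the reads do not set it on one side of 2-fold. Adamts9 had an RPKM of 0.196 and 0.217, and the interval of its ratio, 0.744 to 1.09, included 1. Adamts8, Adamts15 and Adamts20 had at most 22 reads in either library. Over the 7 genes the summed RPKM was 140 in supportive and 13.3 in non-supportive ISEMFs, and Adamts5 with Adamts1 made 43.6% and 25.3% of the RPKM of all ADAMTS genes in the supportive library. In the non-supportive library Adamts12 was the highest ADAMTS gene, with 34.1%.

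Procollagen N-proteinases remove the amino-terminal propeptide of fibrillar procollagens. Adamts2 (chr11:50415586-50621075) had 11566 reads and an RPKM of 16.8 in supportive ISEMFs against 1024 reads and 1.53, which was 10.98-fold higher (interval, 10.3 to 11.7). Adamts14 was nearly level, with 898 reads and 2.15 against 972 reads and 2.40, a ratio of 0.898 (interval, 0.819 to 0.984). Adamts3 had 0 and 6 reads. The higher level was thus seen in Adamts2 alone of the 3.

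Of the other ADAMTS genes, Adamts10, which binds fibrillin microfibrils, was at an RPKM of 8.22 with 5822 reads against 1.28 with 882 reads. It was 6.41-fold higher (interval, 5.98 to 6.89). Adamts6, its close relative, was at 10.3 with 4173 reads against 6.01 with 2371, a ratio of 1.71 (interval, 1.63 to 1.80). Adamts12 was at 11.4 with 5083 reads against 12.8 with 5568, a ratio of 0.887 (interval, 0.854 to 0.922). Adamts7, which like Adamts12 can cleave cartilage oligomeric matrix protein, stayed under an RPKM of 1, with 55 and 200 reads. Adamts16 and Adamts17 had at most 7 reads, and Adamts13 (the von Willebrand factor cleaving protease), Adamts18 and Adamts19 had none.

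The highest ratio of all members was that of an ADAMTS-like gene. Adamtsl3 (chr7:89484204-89762960) had 14374 reads and an RPKM of 16.05 in supportive ISEMFs against 54 reads and 0.0620. It was 259-fold higher (interval, 198 to 345), with a log2 ratio of 6.64 at percentile 99.98 of the expressed protein-coding genes. Adamtsl4, known for fibrillin microfibrils of the eye, was at 1.96 with 752 reads against 0.241 with 90 reads, 8.12-fold higher (interval, 6.52 to 10.2). Adamtsl5 was at 2.03 with 1225 reads against 0.229 with 134 reads, 8.88-fold higher (interval, 7.43 to 10.7). All 3 were under an RPKM of 1 in non-supportive ISEMFs. Adamtsl1 lay on the other side at a low level, with 15 reads in supportive and 135 in non-supportive ISEMFs, and Adamtsl2 had 1 and 2 reads.

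**Figure D3:**
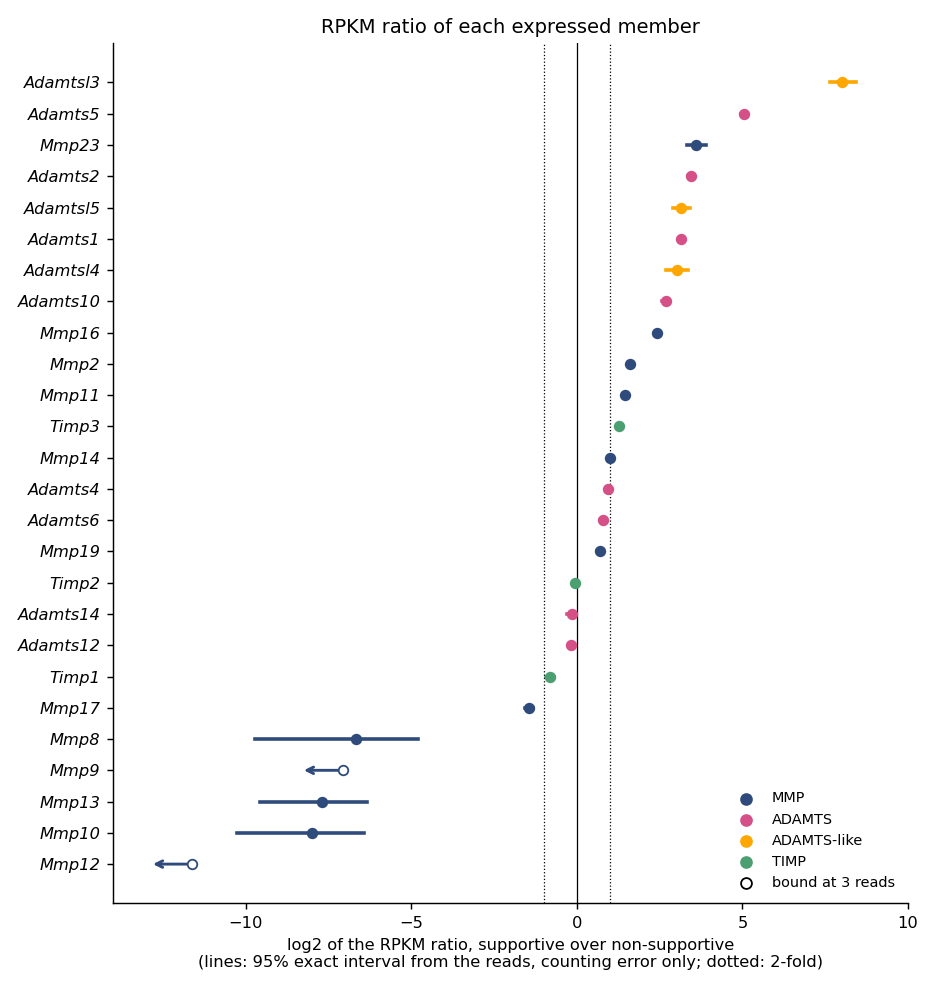
Log2 of the RPKM ratio of supportive over non-supportive ISEMFs for the 26 expressed members without a pseudocount, colored by family, with lines for the 95% exact interval from the reads and open points with arrows for bounds at 3 reads. The ratios ran from 3121-fold lower at 3 reads for Mmp12 (limit of the interval, 2538-fold) to 259-fold higher for Adamtsl3. Those of Mmp14 and Adamts4 lay at the 2-fold line.

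Timp2 (chr11:118162383-118217054), which inhibits MMPs and also takes part in the activation of Mmp2, had the highest RPKM of all members in both libraries. Its 47080 reads in supportive ISEMFs gave an RPKM of 161 against 47523 reads and 167. Its ratio of 0.963 (interval, 0.951 to 0.975) was close to level, and its direction changed when the libraries were scaled by TMM factors or to a median log2 ratio of 0. Timp3 (chr10:85763117-85812251), which is held in the matrix and also inhibits ADAMTS proteinases and ADAM17, had 75527 reads and an RPKM of 123 against 30504 reads and 51.0. It was 2.41-fold higher (interval, 2.37 to 2.44). Timp3 shares 21.3% of its exon bases with Syn3, the gene it lies within.

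Timp1 (chrX:20447292-20451861), a weak inhibitor of membrane-type MMPs, was at an RPKM of 10.2 with 840 reads against 17.9 with 1431 reads, 1.75-fold lower (interval, 1.61 to 1.91). Timp4 had no read in either library. Timp2 made 54.8% and Timp3 41.8% of the summed RPKM of the TIMP genes in supportive ISEMFs, against 70.8% and 21.6%.

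Summed over genes, the MMP family had an RPKM of 211 in supportive and 117 in non-supportive ISEMFs, the ADAMTS family 189 and 37.6, the ADAMTS-like family 20.1 and 0.660, and the TIMP family 294 and 236. The summed RPKM of MMP and ADAMTS genes was thus 2.59-fold higher in supportive ISEMFs, against 1.24-fold for TIMP genes. The ratio of summed TIMP to summed proteinase RPKM was 0.734 in supportive and 1.53 in non-supportive ISEMFs. It pools all TIMP genes with all MMP and ADAMTS genes, whichever enzymes each TIMP inhibits, and is no measure of inhibition. The MMP sum in supportive ISEMFs was mostly Mmp14 (40.7%) and Mmp2 (32.4%). These are transcript levels, and say nothing of proenzyme activation.

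**Figure D4:**
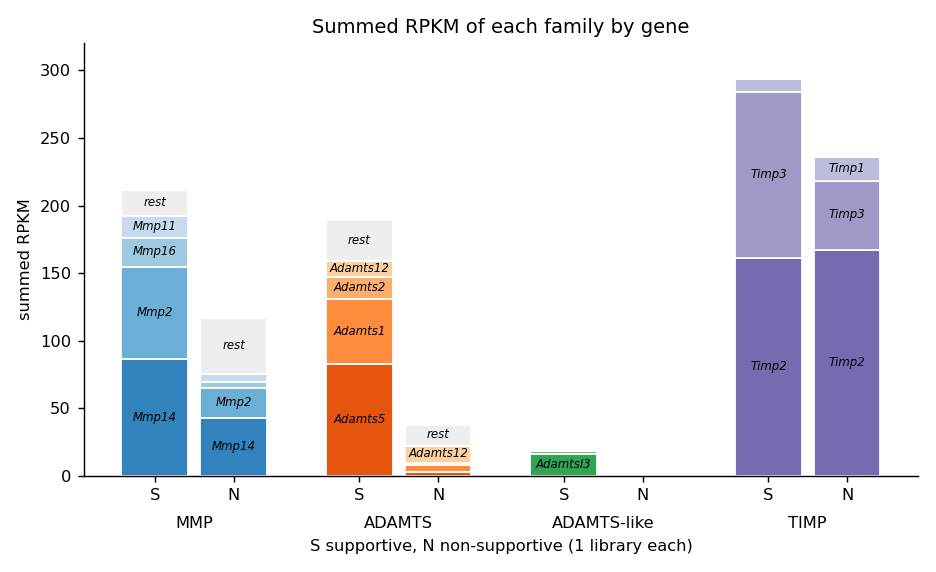
Summed RPKM of the MMP, ADAMTS, ADAMTS-like and TIMP genes in the supportive (S) and non-supportive (N) library, stacked by gene with the 4 highest genes of each family named where space allows. The ADAMTS bar was 189 against 37.6, while the TIMP bars were 294 and 236.

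**Figure D5:**
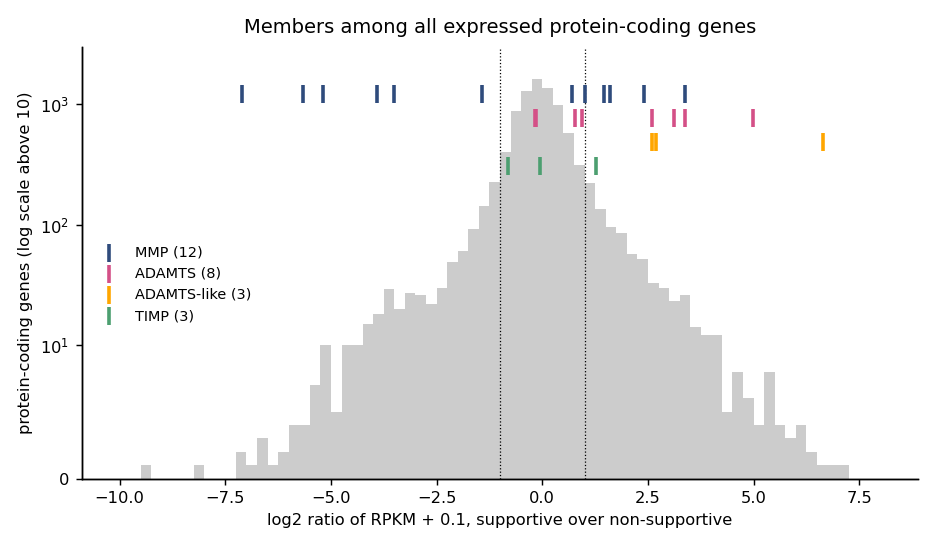
Number of expressed protein-coding genes (grey bars, log scale above 10) by log2 ratio with a pseudocount of 0.1, with ticks for the 26 expressed members by family and dotted lines at 2-fold. Of the members 13 lay above and 6 below the lines, where 9.25% and 8.98% of the 9110 genes did.

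Other genes were taken from lists of 44 genes, of pericellular proteolysis and of AP-1, of which 28 were expressed. At least 2-fold differences were found in 14 of these (50%), against 18.2% of all expressed protein-coding genes. Of the 14, 7 were higher and 7 lower, each 25% of the 28, against 9.25% and 8.98% of all. The AP-1 genes, which are not proteolysis genes, made 6 of the 28 and 4 of the 14, with 3 higher and 1 lower. The median log2 ratio of the 28 was 0.02, against -0.07 for all. Of the 6 expressed membrane sheddases of the ADAM family, 3 were lower and 0 higher. Adam19 was at an RPKM of 24.3 against 72.7, Adam12 at 1.85 against 5.66, and Adam9 at 34.5 against 70.01, with an interval for Adam9 of 1.99-fold to 2.07-fold lower. Adam10 and Adam17, the main general sheddases, were at 22.4 against 28.6 and at 5.85 against 5.35. Adam15, the remaining one, was at 0.971 against 1.26. Under an RPKM of 1, Adam8 had 16 reads in supportive ISEMFs against 403, Adam33 9 against 10, Adamdec1 1 against 2 and Adam28 0 against 2.

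Of the 4 expressed tolloid proteinases and their enhancers, 1 was higher and 1 lower. Tll1, a procollagen C-proteinase, was at an RPKM of 3.53 in supportive and 122 in non-supportive ISEMFs, 34.5-fold lower (interval, 32.6 to 36.5). Bmp1, the other procollagen C-proteinase expressed here, was at 8.91 against 12.3, and Pcolce, which enhances that cleavage, was 2.96-fold higher at 22.7 against 7.69. Among the other inhibitors and inducers, 2 of 8 were expressed and 1 was past 2-fold. Reck, a membrane-anchored inhibitor of MMPs, was at 4.51 against 2.01, 2.24-fold higher (interval, 2.07 to 2.42). Bsg, an inducer of MMPs, was at 135 against 106.

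Of the 3 expressed proprotein convertases, which activate membrane-type MMPs and ADAMTS proteinases, 0 were past 2-fold, and Furin was at 0.871 against 1.52. Pcsk5, under an RPKM of 1 in both libraries, had 325 reads in supportive ISEMFs against 57. Vcan (versican), the only expressed hyalectan of the 4, was at 33.1 against 7.73, 4.28-fold higher (interval, 4.205 to 4.36) and so higher along with Adamts1 and Adamts5. Of the 6 cysteine cathepsins and cystatins, 1 was higher and 2 lower. Cst3 (cystatin C) was at 123 against 39.5, Ctsb at 34.5 against 81.2, and Ctss, a cathepsin of macrophages, at 0.0311 with 4 reads against 18.1 with 2255 reads.

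The AP-1 genes, whose products are known to bind TGANTCA, had members on both sides. Binding to the cluster promoters was not measured. Of the 6 expressed, 3 were higher and 1 lower. Fos was at an RPKM of 7.57 against 0.425, Fosb at 10.3 against 1.36 and Junb at 4.38 against 1.66. Fosl2 was at 25.8 against 61.5, Jun at 9.94 against 10.5 and Jund at 2.26 against 1.15. Fosl1, under an RPKM of 1 in both libraries, had 31 reads in supportive ISEMFs against 104. Whether they bear on the cluster genes was not tested.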

How the data were processed

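RNA sequencing of 1 library of supportive and 1 of non-supportive ISEMFs was analysed. The authors aligned single-end reads of 50 bases to mm9 with TopHat (TopHat2 2.0.4 in the submitters' processing notes) using Ensembl genes, kept unique hits, and counted reads per gene with HTSeq (its Ensembl release is not given in the sources used here). The deposited counts are whole reads per gene. The RPKM values deposited by the authors are these counts divided by exon length and library size, and imply library sizes above the reads on genes. The table also holds the authors' log2 ratios and DESeq p-values, which were not used, and a second table with a Wnt pathway subset was not used.

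The log2 ratio was computed from RPKM with a pseudocount of 0.1. Where 1 library or both had an RPKM of 1 or more, genes past 2-fold were counted without a test, since the models of edgeR and DESeq2 cannot estimate variation from 1 library per group. Clopper-Pearson intervals at 95% were taken from the share of reads. A fold against a library without a read was computed at 3 reads per library. With 1 to 3 reads the ratio is given with its interval, in place of the bound first planned. Members without a read are below the level of 3 reads at this depth. Members, roles and lists were chosen with earlier results of these data known, and all expressed members are named. Coordinates are from GENCODE vM1, which held all 51 members on the same chromosome. Its exon length equalled the deposited one for 19, and exon bases are shared with other genes in 11 members. Paralogs of the chromosome 9 cluster can lose reads to the unique-hit rule. Promoters are from RefSeq, and the planned protein motifs were not computed. The ratio step was checked on simulated data. Alternatives were other pseudocounts, minima, thresholds and scalings (TMM, and DESeq2's size factors), and edgeR's exact test with an assumed coefficient of variation of 0.4. Scaling used edgeR 4.0.16 and DESeq2 1.42.0 under R 4.3.3. Intervals were from scipy 1.17.1 and tables from pandas 2.3.3 with numpy 2.4.6, both under Python 3.11.15, and plots from matplotlib 3.10.9.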

Additional observations from a re-analysis of the deposited data

How the results depend on the processing

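The 19 of 26 members past 2-fold became between 13 and 21 under the 10 alternatives, all within 1.5 times. The total changed with the minimum, to 14 of 20 with an RPKM of at least 5 and 21 of 51 with none. Of the split into 13 higher and 6 lower, the lower count was 3 with an RPKM of at least 5 as the minimum, and the higher count was 8 under edgeR's exact test with an assumed coefficient of variation of 0.4, a value the data cannot supply. Mmp14 was lost with a pseudocount of 1 and when the whole interval had to lie past 2-fold, and Adamts4 was gained after rescaling to a median log2 ratio of 0. Of the 130 log2 ratios of the 26 named members under 5 alternatives, 128 kept their direction and the other 2 were those of Timp2. This count is no check of direction. A pseudocount added to both libraries cannot change it, and the scalings moved the median log2 ratio only from -0.07 to at most 0. By family, the 11 MMP genes past 2-fold became 7 at 4-fold (2 higher) and 6 under the exact test (1 higher), and the 6 lower ones became 3 with an RPKM of at least 5. The 3 ADAMTS-like genes became 1 with that minimum, which 1 of them reached, the 0 lower ADAMTS genes became 1 with no minimum, and the 1 TIMP gene became 0 at 4-fold and under the exact test. The 14 pathway genes past 2-fold became 5 at a 4-fold threshold (3 higher, 2 lower) and 4 under the exact test (2 higher, 2 lower), and these family and pathway counts were added after the data were seen. The 1661 of 9110 protein-coding genes past 2-fold became 837 of 4725 with an RPKM of at least 5 and 2639 of 22379 with no minimum. They became 603 of 9110 at 4-fold and 436 of 9110 under the exact test. No paired analysis was possible because each population has 1 library, which also leaves no replicate to leave out. The log2 ratios of Mmp8, Mmp10 and Mmp13 rest on 2 to 4 reads in the supportive library, and their size depends on the pseudocount, which cannot change their direction.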
